A study of Raphidocelis subcapitata with 45 samples.

Results

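Of 7291 transcripts measured in the green alga Raphidocelis subcapitata, 417 differed between cells at 12249 µg/L and cells at 4900 µg/L sertraline, which are neighbouring concentrations of the series. With 12249 µg/L 284 transcripts were higher and 133 were lower. The comparison set all 3 libraries available at 12249 µg/L against all 5 at 4900 µg/L, chosen by the concentration in their labels, which makes 8 of the 41 libraries of the series. No control library entered the test. Both groups are whole cells, taken in exponential growth from a stock labelled Carolina Biological, kept under constant light and harvested after 24 h with sertraline hydrochloride at the nominal concentration. The solvent was present in all wells, the control's included. RNA came from homogenates pooled over 3 plates, so one library stands for several wells, and the labels name no separate cultures. The study's design text and its treatment protocol differ on the number of plates and on the solvent content. All p-values here are against the spread between libraries, part or all of which may be technical.

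R. subcapitata is a unicellular freshwater alga and a standard species of aquatic toxicity tests. Sertraline is an antidepressant that blocks serotonin reuptake in animals. It is a weak base with a lipophilic ring system, and drugs of this kind are known from mammalian cells to enter membranes and to gather in acidic organelles. The study's title concerns reactive oxygen species, short-lived oxidants that photosynthetic cells form in chloroplasts and mitochondria and remove with antioxidant enzymes. The deposited table gives bare gene identifiers, with which no annotation was paired here, so neither antioxidant genes nor marker genes of the alga could be looked up. Only 4 genes are named, 2 higher and 2 lower at 12249 µg/L.

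The values are normalised log expression levels, taken to be log2, in libraries made from the 3′ ends of transcripts. If the base were another, every fold below would change with it. Read depth is unknown. The medians of the 3 libraries at 12249 µg/L were 4.56 to 4.59, those of the 5 libraries at 4900 µg/L were 4.55 to 4.59, and over all 41 libraries the range was 4.55 to 4.73. Each value is a level relative to the rest of its library, so neither cell number nor total RNA per cell can be read from it. A rise or fall here is relative to the other transcripts, and need not be one in amount per cell.

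The 8 libraries did not fall into 2 tight groups. The root mean square difference between libraries, taken over all genes on the log2 scale, ran from 0.484 to 1 over the 15 pairs that cross the groups, against 0.488 to 0.653 within 12249 µg/L and 0.458 to 0.723 within 4900 µg/L. Replicate A at 12249 µg/L was nearer to replicate E at 4900 µg/L (0.484) than to replicates B (0.488) and C (0.653) of its own group. Replicate E at 4900 µg/L stood as near to the mean of the 12249 µg/L libraries (0.457) as to the mean of the other 4900 µg/L libraries (0.459). Of the 12249 µg/L libraries, replicate C lay farthest from 4900 µg/L, at 0.755 from that group's mean, against 0.525 for A and 0.561 for B.

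**Figure D1:**
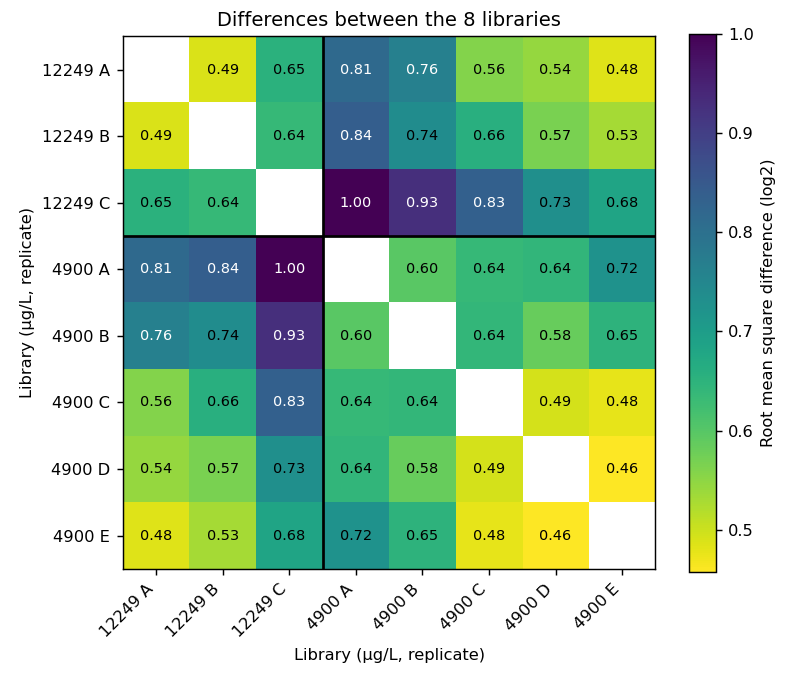
Root mean square difference over all genes (log2 scale) between each pair of the 8 libraries, the 12249 µg/L libraries above and left of the black lines and the 4900 µg/L libraries below and right. Darker cells are larger differences. Replicate C at 12249 and replicate A at 4900 µg/L are the farthest pair (1), while replicate A at 12249 and replicate E at 4900 µg/L differ by 0.484.

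Along the course from 1960 to 30623 µg/L the 12249 and 4900 µg/L groups did not overlap. Each library was placed by the genes that differed between the 30623 and 1960 µg/L libraries, a choice that uses no library of the step, with the 1960 µg/L mean at 0 and the 30623 µg/L mean at 1. Since these genes were picked on the libraries at both ends, the scale is stretched in favour of the ends. The 12249 µg/L libraries stood at 0.544 (A), 0.655 (B) and 0.926 (C), a mean of 0.708 ± 0.197 (SD, n = 3). The 4900 µg/L libraries stood at 0.102 (A), 0.249 (B), 0.198 (C), 0.424 (D) and 0.451 (E), a mean of 0.285 ± 0.149 (SD, n = 5). The highest 1960 µg/L library stood at 0.103, level with the lowest of 4900 µg/L. The gap between replicate A at 12249 and replicate E at 4900 µg/L was smaller than the spread inside either group, and replicate C at 12249 µg/L came close to the lowest 30623 µg/L library (0.975). Rising and falling genes gave alike positions, 0.7 and 0.717 on average at 12249 µg/L, against 0.254 and 0.317 at 4900 µg/L.

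**Figure D2:**
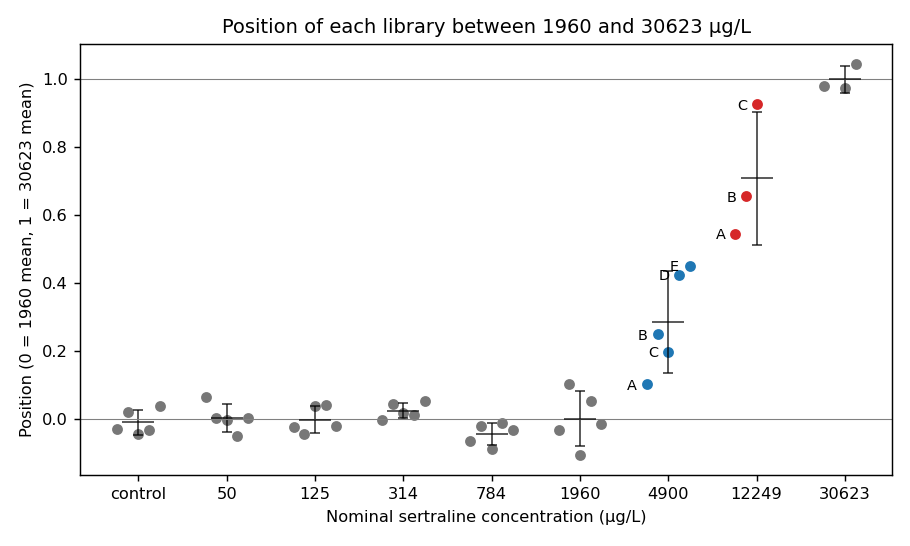
Position of every library, scored with genes that differ between 30623 and 1960 µg/L, against nominal sertraline concentration in equal steps. Points are libraries, red at 12249 and blue at 4900 µg/L with replicate letters, and bars are means ± SD (n = 5, but n = 3 at 12249 and 30623 µg/L). Groups up to 1960 µg/L lie near 0, the 4900 µg/L libraries between 0.102 and 0.451 and the 12249 µg/L libraries between 0.544 and 0.926.

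The step was tested by limma's moderated linear model on the 8 libraries, with Benjamini-Hochberg adjustment over all 7291 genes and a threshold of 0.05, and a gene past it is referred to as called. The called genes were 5.72% of all, with 284 higher (3.9%) and 133 lower (1.82%) at 12249 µg/L. Without adjustment 1593 genes had a p under 0.05. Under quantile scaling 193 were higher and 157 lower. A fit in which all 41 libraries share one spread called 852 higher and 705 lower. That spread is drawn mostly from quieter groups, with a root mean square SD per gene of 0.422 both at 12249 and at 4900 µg/L, against 0.259 to 0.293 in the control and in each group up to 784 µg/L.

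Single libraries weighed heavily on these counts. Without replicate C of 12249 µg/L, 104 genes were called, 67 higher and 37 lower, and without replicate B of 12249 µg/L, 204 were called, 160 higher and 44 lower. Without replicate B of 4900 µg/L there were 268, with 187 higher and 81 lower. The lower genes alone were 88 without A, 85 without C and 211 without E of 4900 µg/L. All 417 genes kept the sign of their change in each of these fits. For the 270 higher and 121 lower genes whose groups do not overlap, no other outcome was possible. Over all 284 higher and 133 lower genes the median change was 0.98 and -1.18 without replicate C of 12249 µg/L. With all libraries it was 1.19 and -1.26.

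Most called changes lay between 1 and 2 log2 units. The higher genes had a median log2 change of 1.19 (quartiles 1.01 and 1.41) and the lower genes one of -1.26 (quartiles -1.56 and -1.02), where the median over all genes was 0 (quartiles -0.3 and 0.32). Of the higher genes 215 changed by 1 or more and 12 by 2 or more, and of the lower genes 103 and 10. The smallest called changes were 0.64 upward and -0.75 downward. The median standard error of a change was 0.286, and the median 95% interval reached 0.6 to either side. For 4339 genes (59.5%) that interval lay within 1 log2 unit of no change, but for only 81 (1.11%) within 0.5.

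All 3 libraries at 12249 µg/L lay above all 5 at 4900 µg/L for 641 genes (8.79%) and below all 5 for 444 genes (6.09%). Among the called genes this held for 270 of the 284 higher and 121 of the 133 lower ones.

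Of the 133 falls 99 were in the highest tercile of expression, and so were 130 of the 284 rises. The terciles were set by the control mean, which is not part of the test. In the highest tercile 130 genes were higher at 12249 µg/L (5.35%) and 99 lower (4.07%). In the middle tercile 96 were higher (3.95%) and 21 lower (0.864%), and in the lowest 58 were higher (2.39%) and 13 lower (0.535%). The median change over all genes of a tercile was -0.05 in the highest, 0.01 in the middle and 0.04 in the lowest. Spread was wider among low genes, with a root mean square SD at 12249 and 4900 µg/L of 0.456 and 0.472 in the lowest tercile and 0.379 and 0.363 in the highest, and its part in the counts was not tested.

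Rsub_05017 had the largest rise. Its level was 8.07, 8.13 and 9.37 in the 12249 µg/L libraries and 4.98, 5.16, 6.15, 5.71 and 6.37 in the 4900 µg/L libraries. The groups stood 1.70 apart at their nearest libraries, with replicate C at 12249 µg/L highest of all. Its mean was 8.52 ± 0.74 (SD, n = 3) at 12249 µg/L and 5.67 ± 0.60 (SD, n = 5) at 4900 µg/L, a 7.2-fold rise with a log2 change of 2.85 ± 0.33 (SE) and a limma adjusted p of 0.000149. In the control and from 50 to 1960 µg/L its group means lay between 3.78 and 4.24. At 30623 µg/L replicate A held 8.45, and replicates C and D held 7.02 and 6.95.

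Rsub_07491 had the smallest p of all genes. Its level was 9.2, 9 and 9.22 at 12249 µg/L, against 6.61, 6.57, 7.24, 6.97 and 7.03 at 4900 µg/L. The 12249 µg/L libraries lay within 0.22 of each other, and 1.76 above the highest 4900 µg/L library. The means were 9.14 ± 0.12 (SD, n = 3) at 12249 µg/L and 6.88 ± 0.29 (SD, n = 5) at 4900 µg/L, a log2 change of 2.26 ± 0.21 (SE) or 4.77-fold, with a limma adjusted p of 1.23e-05. Its group means were not monotone, with 7.52 ± 0.40 (SD, n = 5) at 1960 µg/L and 6.73 ± 0.24 (SD, n = 5) in the control. The difference between 1960 and 4900 µg/L was not tested. The difference of 0.79 ± 0.15 (SE) between 1960 µg/L and the control passed the threshold (limma adjusted p = 0.000144). At 30623 µg/L replicate A was again high with 9.58, and replicates C and D held 8.03 and 7.68, so only A lay above the 12249 µg/L libraries.

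Rsub_01914 had the largest fall. Its level was 4.18, 4.03 and 4.89 at 12249 µg/L, against 7.99, 7.65, 7.31, 6.71 and 5.68 at 4900 µg/L. The groups were 0.78 apart, and the 4900 µg/L libraries covered a range of over 2 log2 units with E lowest. Its mean was 4.37 ± 0.46 (SD, n = 3) at 12249 µg/L and 7.07 ± 0.91 (SD, n = 5) at 4900 µg/L. This is 0.154 of the level at 4900 µg/L, a log2 change of -2.70 ± 0.39 (SE) with a limma adjusted p of 0.000923.

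Below the step the same gene had risen. Rsub_01914 was at 6.97 ± 0.29 (SD, n = 5) at 1960 µg/L and at 5.42 ± 0.38 (SD, n = 5) in the control, a change of 1.55 ± 0.16 (SE) with a limma adjusted p of 8.33e-09. At 30623 µg/L, with 4.76 ± 0.43 (SD, n = 3), it was lower than the control by a change of -0.65 ± 0.25 (SE, limma adjusted p = 0.0417).

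Rsub_02803, which had the smallest p among the other falls, also stood above the control below the step. Its level was 5.06, 4.44 and 4.07 at 12249 µg/L, against 6.99, 7.02, 6.73, 6.18 and 5.58 at 4900 µg/L, where E was again lowest. The groups were 0.51 apart. The log2 change was -1.98 ± 0.32 (SE) with a limma adjusted p of 0.00234, and the level at 12249 µg/L was 0.254 of that at 4900 µg/L. It had been higher than the control at 784 µg/L by 0.95 ± 0.16 (SE, limma adjusted p = 6.68e-05) and at 1960 µg/L by 1.26 ± 0.17 (SE, limma adjusted p = 6.74e-07). At 30623 µg/L it was lower than the control, by a change of -0.97 ± 0.26 (SE, limma adjusted p = 0.00466). The comparisons of 784, 1960 and 30623 µg/L share the control libraries.

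**Figure D3:**
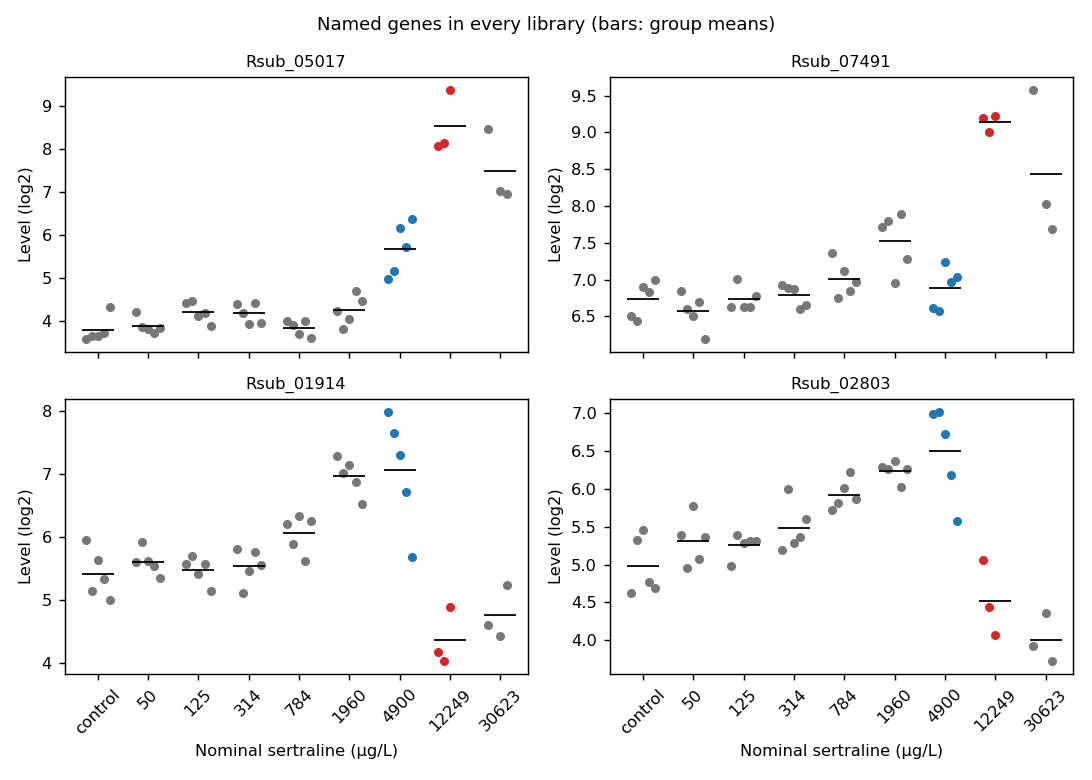
Level (log2) of the 2 named rises and the 2 named falls in every library, by nominal sertraline concentration in equal steps, with the 12249 µg/L libraries in red, the 4900 µg/L libraries in blue and group means as bars. Rsub_01914 and Rsub_02803 have group means of 4.37 and 4.52 at 12249 µg/L, and of 7.07 and 6.50 at 4900 µg/L, the highest of any group.

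Genes chosen for a change of 2 or more log2 units will mostly have groups that do not overlap, which over all genes held for 8.79% upward and 6.09% downward. It held for all 12 rises of this size, and their means ranged from 5.90 to 10.59 at 12249 µg/L and from 3.9 to 8.36 at 4900 µg/L. It held for 7 of the 10 such falls, and the means of the 10 ranged from 2.94 to 8.77 at 12249 µg/L and from 4.97 to 10.89 at 4900 µg/L. Against the control, 9 of the 10 falls were called higher at 1960 µg/L, and so were 5 of the 12 rises, with 1 rise called lower, where of all genes 10.7% were higher and 12.4% lower. Yet 6 of these 10 falls had passed the threshold downward for 784 µg/L against the control. Another 3 had passed it upward, including Rsub_01914. The background shares of that comparison were 3.8% downward and 2.15% upward. Of the 12 rises, 1 passed downward there and 0 upward. The 10 falls stood high at 4900 µg/L by the choice of members.

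The genes that rose in the step had a median distance from the control mean between -0.03 and 0.06 at 50 to 1960 µg/L, with members on both sides. Their quartiles were -0.18 and 0.1 at 784 µg/L, but -0.34 and 0.4 at 1960 µg/L. It was 1.49 at 12249 and 0.31 at 4900 µg/L, the groups on which they were chosen, and 1.09 at 30623 µg/L. For 186 of the 284 (65.5%) no group mean from 50 to 1960 µg/L departed from the control mean by 0.5 or more, while among all genes 70.9% stayed as flat. At 1960 µg/L 57 were called higher (20.1%) and 50 lower (17.6%) than the control, beside the 10.7% and 12.4% of all genes. At 784 µg/L 8 were called higher and 14 lower, shares of 2.82% and 4.93% beside 2.15% and 3.8% of all genes.

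The genes that fell in the step had a more varied past. Their median distance from the control mean was -0.18 for 314, -0.13 for 784 and 0.33 for 1960 µg/L. It was -1.31 for 12249 and -0.11 for 4900 µg/L, and -1.40 for 30623 µg/L. At 1960 µg/L 55 of the 133 (41.4%) were called higher than the control and 10 lower (7.52%), beside 10.7% and 12.4% of all genes. At 784 µg/L 15 were called higher (11.3%) and 43 lower (32.3%), beside 2.15% and 3.8% of all genes. Put the other way, the step lowered 15.5% of the 277 genes called lower at 784 µg/L and 9.55% of the 157 called higher there, beside 1.09% of the 6857 not called. The 43 genes called lower at 784 µg/L had a median of -1.01 at 784 µg/L and 0.43 at 1960 µg/L, and of -1.93 at 12249 and -0.41 at 4900 µg/L. They were highly expressed, with a median control level of 7.62, where the 133 genes together had 6.44 and the genes not called in the step 4.53.

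**Figure D4:**
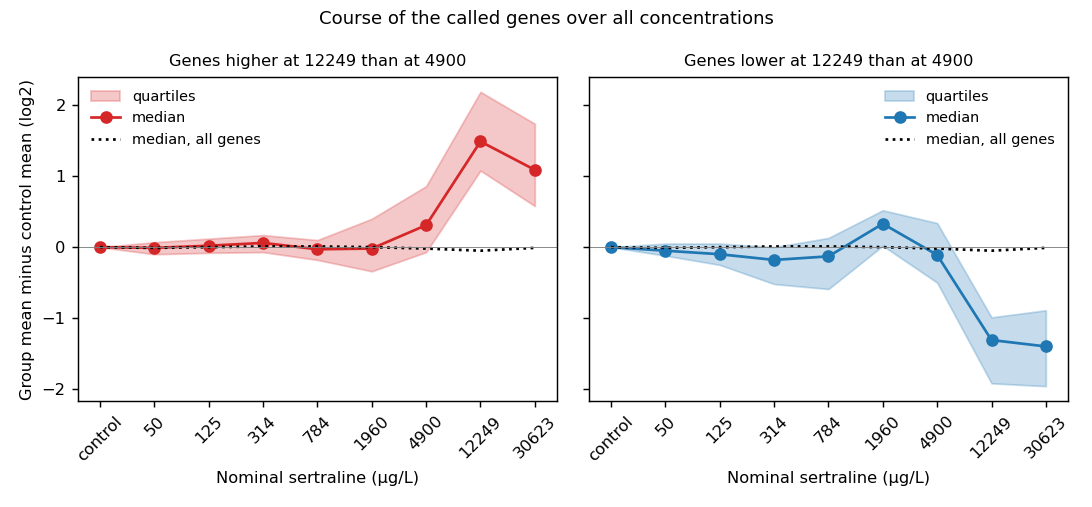
Course of the 284 genes higher (left, red) and the 133 genes lower (right, blue) at 12249 than at 4900 µg/L, as group mean minus control mean (log2) against nominal sertraline concentration in equal steps. Lines are medians over genes, shading runs from the lower to the upper quartile and dots give the median of all genes. The genes were chosen on the 12249 and 4900 µg/L groups. The left median is 0.31 at 4900, 1.49 at 12249 and 1.09 at 30623 µg/L, and the right one is 0.33 at 1960, -0.11 at 4900 and -1.31 at 12249 µg/L.

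The direction of the step held in libraries that took no part in it. In a fit of the 3 libraries at 30623 µg/L against the 5 at 1960 µg/L, 201 of the 284 rises (70.8%) were called higher and none lower, where of all genes 15.6% were higher and 16.7% lower. The median difference of these 284 genes was 1.09, against 0.01 over all genes, and 271 were above 0. Of the 133 falls 113 (85%) were called lower and none higher, with a median of -1.63 and 130 below 0. Of the genes higher at 30623 than at 1960 µg/L, the 201 make up 17.7%, and the 113 make up 9.31% of those lower.

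Against the control, 211 of the 284 rises were called higher at 30623 µg/L (74.3%) and 3 lower, and 111 of the 133 falls were called lower (83.5%) and 1 higher. The shares among all genes were 22.8% and 24.6% in that comparison, which uses the same 30623 µg/L libraries as the one above.

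**Figure D5:**
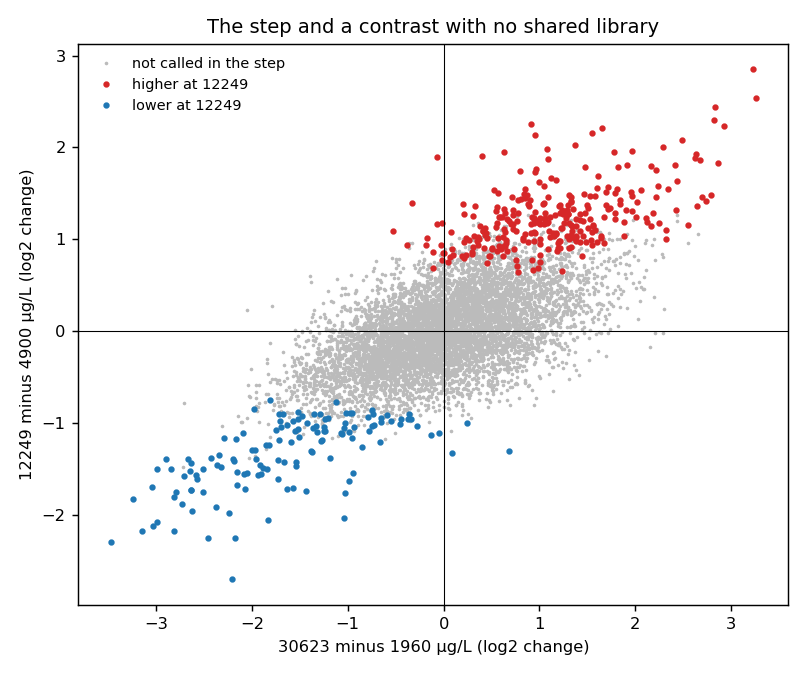
Log2 difference 12249 minus 4900 µg/L (vertical axis) against the log2 difference 30623 minus 1960 µg/L (horizontal axis) for 7291 genes, with genes called higher in the step in red, those called lower in blue and the others in grey. The 2 axes share no library. Of the 284 red genes 271 lie right of 0, and of the 133 blue genes 130 lie left of it.

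The rises were kept unevenly at 30623 µg/L. At 12249 µg/L, 186 (A), 196 (B) and 246 (C) of the 284 genes lay at least 1 above the control mean, beside 10.7%, 11.7% and 16.8% of all genes. These libraries were among those that chose the genes, which favours high counts there. At 30623 µg/L 230 of the 284 were that high in replicate A, but 117 in C and 129 in D. Without replicate A of 30623 µg/L the median difference from 1960 µg/L was 0.78 and 167 of the 284 were called higher, where 17% of all genes were. In that fit 3 of the 417 genes of the step were called in the opposite direction, against 0 with all libraries. Of all genes 15.7% (A), 15.5% (C) and 17.1% (D) lay at least 1 above the control, while the root mean square SD per gene at 30623 µg/L, 0.507, was the highest of the 9 groups. The falls were even, with 98, 92 and 91 of 133 genes at least 1 below the control in A, C and D. Of all genes 14.3%, 14.8% and 17.2% were that low in these libraries.

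Genes picked without the step moved in it as a body, mostly by less than the test could call. The 1134 genes higher at 30623 than at 1960 µg/L had a median step of 0.49 (quartiles 0.19 and 0.84), and the step was above 0 for 977 of them (86.2%). The 1214 genes lower there had a median step of -0.42 (quartiles -0.67 and -0.17), below 0 for 1059 (87.2%). Over all genes 49.9% of steps were above 0.

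Libraries at 4900 µg/L differed in how many of the step's genes lay beyond 1 log2 unit from the control, a description since these libraries chose the genes. The number of the 284 rises that lay at least 1 above the control mean was 27 in replicate A, 35 in B, 77 in C, 79 in D and 105 in E. In the 1960 µg/L libraries it was between 18 and 44. Of all genes 5.29% (A) to 8.92% (E) lay that far above the control at 4900 µg/L, and 3.33% to 6.28% at 1960 µg/L. Of the 133 falls, 0 lay at least 1 below the control in A, 1 in B, 13 in C, 31 in D and 48 in E, whereas 85 (A), 97 (B) and 101 (C) did at 12249 µg/L. The share of all genes that low was 7.23% (A) to 10.1% (E) at 4900 µg/L and 12.3% (B) to 15.2% (C) at 12249 µg/L. No library of 4900 µg/L reached the lowest count of a 12249 µg/L library in either set.

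The falls were the more variable set at 4900 µg/L. The root mean square SD of the 133 genes was 0.348 at 12249 and 0.645 at 4900 µg/L, while that of the 284 rises was 0.483 and 0.46. Of the 31 genes whose SD at 4900 µg/L exceeded 1, 16 fell in the step (51.6%) and 1 rose (3.23%), where of all genes 1.82% fell and 3.9% rose, and 1 also had an SD over 1 at 12249 µg/L. In the libraries outside the step 20 of these 31 (64.5%) were called lower at 30623 than at 1960 µg/L and 6 (19.4%) higher, where of all genes 16.7% were lower and 15.6% higher. Of the residual sum of squares within 4900 µg/L, 44.7% lay on the first of 4 possible components, while in the other groups of 5 libraries it was 29.5% to 33.3%. With 3 libraries and 2 components, the first held 66.7% at 12249 µg/L. Measured sertraline concentrations were not used here, and their part in the spread was not tested.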

How the data were processed

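Libraries were prepared with the QuantSeq 3′ mRNA kit with molecular identifiers, per the labels' protocols. The authors deposited 1 table of normalised log values, read as log2, for 7291 genes in 41 of the 45 labelled libraries. Not analysed here were 12249 µg/L replicates D, E and 30623 µg/L replicates B, E. Per the submitters' processing notes the tools included DESeq2, featureCounts 2.0.6, SAMtools 1.15.1 and the aligner STAR 2.7.10a, besides fastp 0.23.2 and bcl2fastq 2.20.0. Details not given in the sources used here include the transform, the gene filter, the use of molecular identifiers and the genome build. A transform that pulls weakly measured genes towards their mean would understate their changes.

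No filter or pseudocount was applied. Each contrast (12249 against 4900, 30623 against 1960, and 784, 1960 and 30623 µg/L against the control) had its own fit across all genes on the libraries of its groups alone, by limma 3.58.1 (R 4.3.3, eBayes with an intensity trend, one mean for each group). The step had 6 residual and 12.8 prior degrees of freedom. Tests were two-sided. An earlier fit of these data pooled the spread of all libraries, which is tried as an alternative. The comparison and these choices were made with earlier results of the data known, and the contrast of 784 µg/L was added after the data were seen. Named genes were, in each direction, the largest change and the smallest p of the others among called genes with groups that do not overlap. Lists by product name could not be formed. Alternatives were scaling, a filter, the spread, the prior, a replicate block and each library left out. Figures used Python 3.11.15 and matplotlib 3.10.9.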

Additional observations from a re-analysis of the deposited data

Results flagged for a closer look

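Among 35 groups of 5 library values (the 4 named genes and the position score in each group of 5 libraries), 2 held a library far from the other 4, where chance gives about 1.75. Control replicate E had a level of 4.31 for Rsub_05017, against 3.57 to 3.72 in the other control libraries. Replicate A at 125 µg/L had 4.98 for Rsub_02803, against 5.28 to 5.39 in the others of its group. Neither library enters the test of the step.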

How the results depend on the processing

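The log2 changes of the 4 named genes kept their direction and stayed past the threshold in all 64 values recomputed, which do not include the expression filter. These genes were picked on the same libraries, for large changes or small p and groups that do not overlap. Leaving out a library could therefore not reverse them. The counts moved under several settings. With all 41 libraries sharing one spread, 1557 genes were called, 852 higher and 705 lower, and 917 were also called in the same direction between 30623 and 1960 µg/L, against 417, 284, 133 and 314. When only the 4 groups at 1960 µg/L and above shared it, 213 were lower, and without an intensity trend 189 were higher. Leaving out each library of the step in turn gave between 104 and 614 called genes, 67 to 403 higher and 37 to 211 lower, with 101 to 469 changed by at least 1 in place of 318, and 87 to 445 called in the same direction between 30623 and 1960 µg/L. The replicate block, which compares only letters A to C, called 921 genes, 595 higher and 326 lower, 644 with a change of at least 1. Of the 921, 631 were called in the same direction between 30623 and 1960 µg/L. Leaving out a step library does not touch that contrast, where 15.6% of all genes were higher and 16.7% lower. Under the shared spread and the replicate block these shares need not hold and are not given. The counts of 917 and 631 therefore have no background beside them. Deviations of same-lettered libraries correlated at 0.06 (A), 0.19 (B) and -0.11 (C) across genes. Pairs with different letters ran from -0.12 to 0.26, the highest being replicate A at 12249 with C at 4900 µg/L. With only letters A to C shared, these values cannot decide whether the letters pair the libraries. Each fit without a 12249 µg/L library had 2 libraries there, and called 364 (without A), 204 (without B) or 104 genes (without C). Their median standard errors were 0.33, 0.331 and 0.315, against 0.286 with all libraries. The cause of these and the other shifts was not tested. Leaving out libraries of 30623 or 1960 µg/L, and the scaling of the position score, were tried after the data had been seen.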

Other observations

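The table holds 4046 pairs of consecutive identifiers, and in 19 of them both genes rose in the step, in 4 both fell and in 5 they moved in opposite directions. Of the 175 rises whose next number is in the table, the next gene also rose for 19 (10.9%), where 3.9% of all genes rose. For the falls it was 4 of 72 (5.56%), where 1.82% of all genes fell. The identifier just before Rsub_05017 had a log2 change of 2.54 (limma adjusted p = 0.000574), rank 2 among all rises. The one just after Rsub_02803 had a change of -1.55 (limma adjusted p = 0.0042). No other neighbouring number of a named gene that is in the table was called. Neither the difference from these shares, nor whether such genes are neighbours on the genome or copies that share reads, was tested.

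Replicate B at 125 µg/L had 25 of the 133 step falls at least 1 below the control mean, while the other 4 libraries of 125 µg/L and all libraries of the control and 50 µg/L had 0. At 314 µg/L 15 to 21 of these genes were that low in each library, at 784 µg/L 17 to 24, and at 1960 µg/L 0 to 3. Of all genes 1.29% were that low in replicate B at 125 µg/L. The share of all genes was 0.823% to 1.43% at 314, 1.44% to 1.89% at 784 and 3.48% to 5.79% at 1960 µg/L.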
